A study of Arabidopsis thaliana with 12 samples.

Results

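Phytochromes and the phytochrome-interacting factors (PIFs) were followed at the transcript level in rosette leaves of Arabidopsis thaliana, with and without 1 h at 47 °C. The set holds 8 genes, taken by their locus identifiers out of the 23174 genes in the deposited count table. They are the photoreceptor genes PHYA (AT1G09570) and PHYB (AT2G18790) and the bHLH transcription factor genes PIF1 (AT2G20180), PIF3 (AT1G09530), PIF4 (AT2G43010), PIF5 (AT3G59060), PIF7 (AT5G61270) and UNE10/PIF8 (AT4G00050). All 8 passed the filter on low counts and are among the 16636 genes tested. All samples were Col-0 plants grown on soil for 3 weeks at 23 °C in cycles of 16 h light and 8 h dark. The 4 groups of 3 samples were WT control leaves, WT heat leaves, atcyp18-2 control leaves and atcyp18-2 heat leaves, where atcyp18-2 plants carry a mutation in AtCYP18-2 (AT2G36130), which codes for a cyclophilin. The type of allele is not given in the sources used here, and the mutant was not without the transcript: AtCYP18-2 stood at 5.60 to 6.29 CPM in WT control leaves and 0.951 to 1.05 CPM in atcyp18-2 control leaves, then at 5.52 to 7.48 CPM and 2.14 to 4.13 CPM after heat. Its log2 fold change in atcyp18-2 against WT was -2.55 ± 0.25 (SE) without heat (edgeR adjusted p = 0.00348) and -1.13 ± 0.24 after heat (adjusted p = 0.105), so the heated mutant libraries were not called different from WT at the mutated gene. CPM is the count scaled to the size of the library, with TMM factors, and an adjusted p below 0.05 over all genes tested is a call. The labels name no controls held at 23 °C alongside and no hour of harvest, so the effects of heat and of 1 h going by cannot be told apart. Since the labels do not tie replicates to separate plants, the p-values cover the spread between libraries only, and that spread may be technical.

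Phytochromes are red and far-red light receptors that switch between an inactive and an active form, and phytochrome B also acts as a temperature sensor, since warmth returns its active form to the inactive one faster. Active phytochrome binds PIFs in the nucleus and leads to their phosphorylation and breakdown or keeps them from DNA. PIFs bind G-box and related elements, raise growth and auxin genes in shade and warmth, and hold back chlorophyll synthesis in the dark. PIF4 is best known in leaves and hypocotyls as the main driver of growth at warm ambient temperature, which lies far below the heat shock given here. PIF4 and PIF5 are also under the circadian clock.

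The promoters of 4 members are shown because these genes carry the results: PIF4 had the largest change with heat, UNE10/PIF8 was the member called between the genotypes, PHYB fell in both genotypes, and PIF5, a close relative of PIF4, was called only with a psbA term in the fit. Each sequence is the 300 bases before the annotated gene start, 5′ to 3′ on the gene's strand, from the RefSeq genome and annotation of assembly TAIR10.1. No build is named with the counts, but 42959 of the 42959 annotated nuclear transcripts in the count table are in that annotation, and all 8 members matched it by locus. Capitals mark the G-box CACGTG, the palindrome that PIFs bind.
PIF4, chr2:17885801-17886100, plus strand: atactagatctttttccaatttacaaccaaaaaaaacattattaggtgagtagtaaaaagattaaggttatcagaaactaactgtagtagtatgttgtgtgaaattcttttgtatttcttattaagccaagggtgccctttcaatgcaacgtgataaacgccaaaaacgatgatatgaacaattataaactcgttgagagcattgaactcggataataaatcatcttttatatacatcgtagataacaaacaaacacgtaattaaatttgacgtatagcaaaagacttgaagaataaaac
UNE10/PIF8, chr4:17339-17638, plus strand: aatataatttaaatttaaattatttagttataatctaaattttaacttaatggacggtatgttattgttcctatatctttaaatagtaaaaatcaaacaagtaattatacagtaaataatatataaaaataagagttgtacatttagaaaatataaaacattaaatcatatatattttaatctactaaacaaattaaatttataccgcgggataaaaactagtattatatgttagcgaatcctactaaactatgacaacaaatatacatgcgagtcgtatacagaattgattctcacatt
PHYB, chr2:8139456-8139755, plus strand: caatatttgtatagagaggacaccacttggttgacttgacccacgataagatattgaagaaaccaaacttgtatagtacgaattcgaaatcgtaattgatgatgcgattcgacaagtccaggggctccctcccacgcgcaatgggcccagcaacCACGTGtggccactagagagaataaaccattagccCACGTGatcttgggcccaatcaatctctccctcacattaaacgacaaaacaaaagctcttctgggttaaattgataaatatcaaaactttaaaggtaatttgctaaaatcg
PIF5, chr3:21830838-21831137, minus strand: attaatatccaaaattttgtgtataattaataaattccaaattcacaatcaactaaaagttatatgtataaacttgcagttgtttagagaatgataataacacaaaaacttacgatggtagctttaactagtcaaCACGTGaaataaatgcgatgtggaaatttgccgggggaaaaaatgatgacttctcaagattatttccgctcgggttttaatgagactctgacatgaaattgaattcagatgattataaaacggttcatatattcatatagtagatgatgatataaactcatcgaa

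PHYB held a G-box 146 and another 111 bases before its start, and PIF5 held 1 at 165 bases. The other 6 members had none in this window. A G-box was found in 7.09% of the 27443 promoters of the same length. The PIF-binding element CATGTG, searched on both strands as CATGTG or CACATG, and the core of the heat shock element, searched as GAANNTTC or TTCNNGAA, were in none of the 8 windows and in 13.1% and 19.3% of all promoters. A match is a description of these letters and not a site of binding. PIF3 (chr1:3075768-3079654, plus strand) and PHYA (chr1:3095160-3100819, minus strand) lie near each other on chromosome 1. In the same assembly PHYB is at chr2:8139756-8144461 (plus strand), PIF1 at chr2:8704024-8707009 (minus strand), PIF4 at chr2:17886101-17889087 (plus strand), PIF5 at chr3:21827905-21830837 (minus strand), PIF7 at chr5:24638491-24640765 (minus strand) and UNE10/PIF8 at chr4:17639-20183 (plus strand).

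Libraries held 9075387 to 12493977 reads, of which 2572364 to 4348395 were from nuclear genes and 1054 to 2950 from the 8 members. Within every group the libraries split by the share of reads from psbA, the chloroplast gene of the D1 protein. Of WT, replicates 1 and 2 without heat and replicate 3 with heat held under 28% psbA; of atcyp18-2, replicate 1 without heat and replicate 2 with heat did. These 5 stood at 21.9 to 26.7%, and the 7 others held 28.7 to 38.6%. The share was also higher after heat on both sides of the limit. Under 28%, control libraries held 21.9 to 23.6% and heated ones 26.6 to 26.7%. Over it, control libraries held 28.7 to 32.6% and heated ones 36.1 to 38.6%. The limit was chosen after the shares were seen. Member results resting on these 5 libraries are given with and without them. WT control then keeps 1 library, which is assumed to vary like those of the other groups. Mesophyll markers summed to 10743 to 17840 CPM in WT control and 11196 to 19063 CPM over both heated groups, and all 5 of them were in the table. The floral markers AP3 and AG held at most 5 reads in any library. The root list, nearly all of it PYK10, summed to 21.1 to 54.4 CPM in control leaves of both genotypes and 9.22 to 21.0 CPM after heat, and 2 of its 3 genes stayed under the filter. Guard cell markers summed to 5.98 to 9.63 CPM without heat and 4.65 to 5.94 CPM after it, and the phloem and epidermis list to 58.5 to 117 CPM over all libraries. The part of these shifts in the results was not tested, and in whole leaves fewer cells of a type and less RNA per cell cannot be told apart.

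Per kilobase of transcript, UNE10/PIF8 and PIF5 were the most abundant members without heat and PIF4 the least. In WT control leaves the levels ran from UNE10/PIF8 at 17.6 ± 1.22 CPM per kilobase (SD, n = 3) and PIF5 at 15.9 ± 3.46 through PHYB at 10.3 ± 1.301, PHYA at 8.93 ± 0.930 and PIF7 at 4.59 ± 1.42 to PIF1 at 1.79 ± 0.590, PIF3 at 1.10 ± 0.163 and PIF4 at 0.594 ± 0.156. The ranges of UNE10/PIF8 and PIF5 overlapped, as did those of PHYB and PHYA, and the other neighbours in this order did not. In atcyp18-2 control leaves PIF5 stood at 15.9 ± 3.19 and UNE10/PIF8 at 15.2 ± 1.10 CPM per kilobase, with overlapping ranges, and PIF4 was again lowest at 0.942 ± 0.122, overlapping with PIF3 at 1.13 ± 0.142. After heat PIF5 had the highest mean in both genotypes, at 17.2 ± 4.26 in WT and 20.8 ± 5.57 in atcyp18-2. In WT its range overlapped with that of UNE10/PIF8, at 13.0 ± 2.50, and in atcyp18-2 it did not overlap with the next. PHYA stood in second place in heated atcyp18-2 leaves at 14.7 ± 0.160 CPM per kilobase, above UNE10/PIF8 at 6.15 ± 0.366 and PHYB at 4.74 ± 1.10, with no overlap. The spread among members narrowed at the low end after heat: in atcyp18-2 the ranges of PIF1, PHYB, PIF4, PIF7 and PIF3 each overlapped with the next, from 4.78 ± 0.755 for PIF1 to 3.51 ± 0.276 for PIF3.

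**Figure D1:**
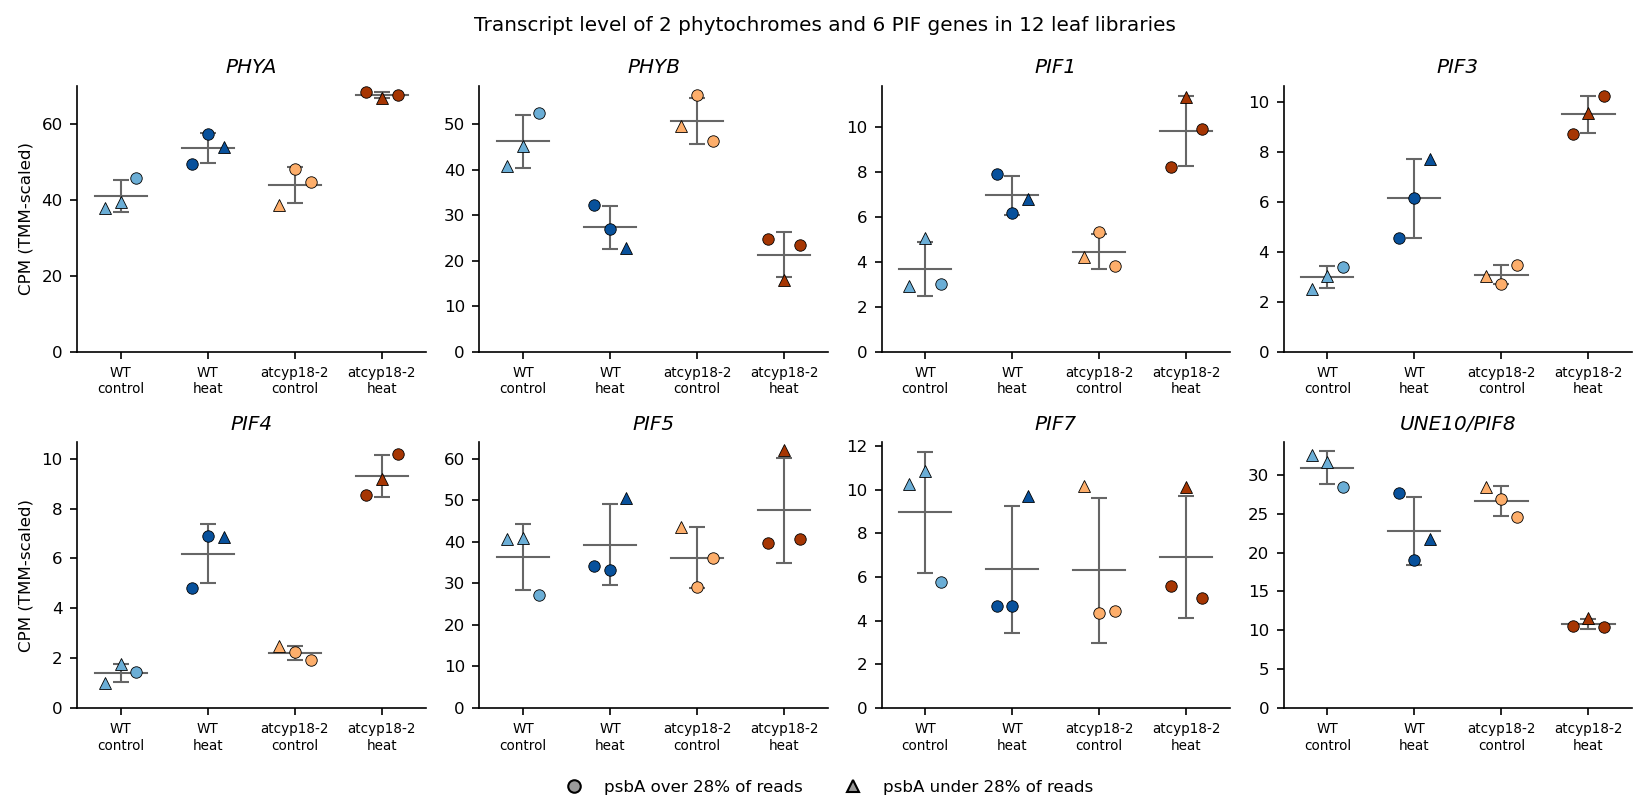
Level of each member in every library, in CPM scaled by TMM (y axis, from 0), by group (x axis); points are libraries, triangles those under 28% psbA, and lines with bars are the mean and SD of 3. PIF4 stands at 1.01 to 2.48 CPM in the 6 control libraries and 4.81 to 10.2 CPM in the 6 heated ones, while UNE10/PIF8 lies at 10.4 to 11.6 CPM in heated atcyp18-2 leaves, under all other libraries.

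PHYB, the main phytochrome of light-grown plants, fell with heat in both genotypes. PHYA, which senses far-red light and is light-labile as a protein, was called higher in atcyp18-2 only as measured against the median gene, and in WT its call differed between the tests. In WT control leaves PHYB stood at 40.8, 45.3 and 52.4 CPM, and in WT heat leaves at 32.2, 27.0 and 22.7 CPM. The atcyp18-2 control libraries held 49.5, 56.4 and 46.3 CPM of PHYB and the heated ones 24.8, 15.7 and 23.4 CPM. Every heated library was below every control library, in both genotypes. The log2 fold change of PHYB was -0.76 ± 0.19 in WT (edgeR adjusted p = 0.0124) and -1.26 ± 0.20 in atcyp18-2 (adjusted p = 0.000356). Without the 5 libraries under 28% psbA these were -0.83 (adjusted p = 0.00137) and -1.09 (adjusted p = 1.07e-05). PHYB shares an identical run of 43 bases with its close relative PHYD, the longest run between a member and any listed relative, and the read length is not given.

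For PHYA the WT libraries held 37.7, 39.5 and 45.9 CPM without heat and 49.4, 57.3 and 53.9 CPM after it. In atcyp18-2 it stood at 38.7, 48.1 and 44.7 CPM without heat and 68.4, 67.0 and 67.7 CPM after it. Heated and control libraries did not overlap in either genotype on this scale. In atcyp18-2 PHYA rose by 0.63 ± 0.14 on the log2 scale (adjusted p = 0.00368), a value that turned to -0.12 (adjusted p = 0.607) when libraries were scaled by their totals. In WT its log2 fold change was 0.39 ± 0.14 (edgeR adjusted p = 0.0577), and -0.35 with library totals. With the replicate block it was 0.39 (adjusted p = 0.0891), and without the 5 libraries under 28% psbA it was 0.21. PHYA was called in WT in 4 of the 24 alternatives: by DESeq2 (0.38, adjusted p = 0.0343), with the log2 psbA share as a further term (0.30, adjusted p = 0.0434), with the psbA class as a term (0.35, adjusted p = 0.00663) and without WT control replicate 3 (0.46, adjusted p = 0.0413). Library totals move the median gene by -0.77 in WT and -0.76 in atcyp18-2, so relative to the median gene PHYA stood at 0.42 and 0.64 under that scaling too. Over all genes, 2200 were called higher and 1711 lower in WT with TMM, against 799 and 7500 with library totals. In atcyp18-2 these were 2812 and 2546 with TMM, against 1010 and 7409.

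The ratio of PHYA to PHYB reads within a library needs no scaling between libraries, and was chosen after its values were seen, so it is given with no test. WT control libraries held 0.924, 0.872 and 0.874 PHYA reads per PHYB read, and WT heat libraries 1.54, 2.13 and 2.38. In atcyp18-2 the ratio was 0.782, 0.854 and 0.964 without heat and 2.77, 4.30 and 2.91 after heat. All 6 control libraries had fewer PHYA than PHYB reads and all 6 heated ones more, and the heated libraries of the mutant lay above those of WT. The ratio shows an unequal change of the 2 transcripts and not which of them moved. The transcripts counted are 4595 bases (PHYA) and 4497 bases (PHYB) long.

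**Figure D2:**
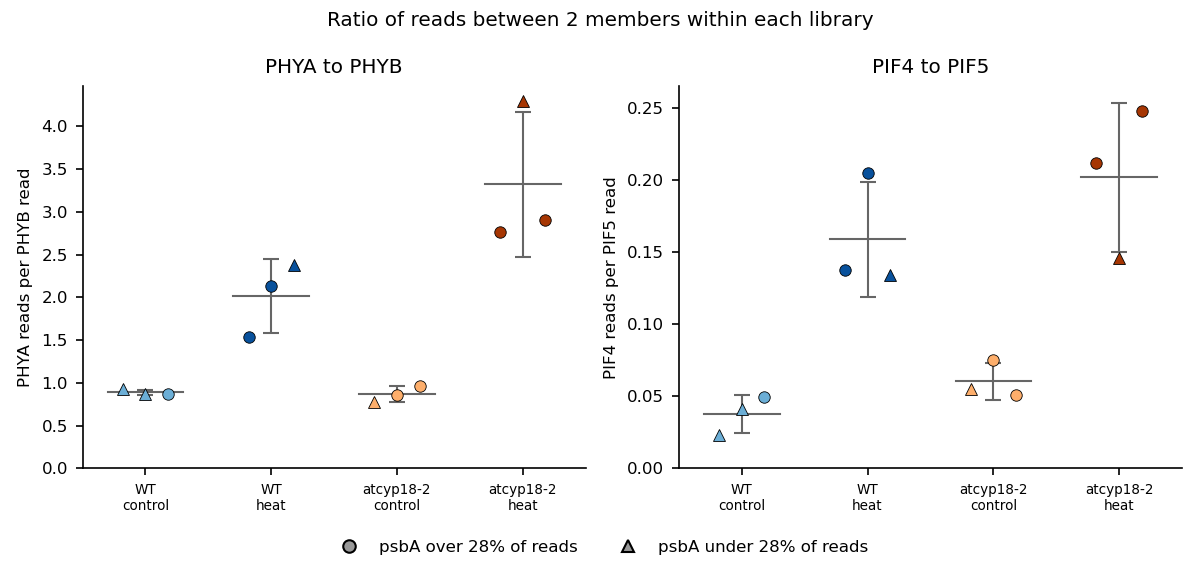
Reads of PHYA per read of PHYB (left) and of PIF4 per read of PIF5 (right) in each library, by group; points are libraries, triangles those under 28% psbA, lines with bars the mean and SD of 3. PHYA reads per PHYB read lie between 0.782 and 0.964 without heat and between 1.54 and 4.30 after heat.

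Of the 8 members, 3 were called higher after heat in WT (PIF1, PIF3, PIF4), where 13.2% of all genes tested were, and 1 lower (PHYB), where 10.3% were. In atcyp18-2 heat leaves 4 were called higher (PHYA, PIF1, PIF3, PIF4; 16.9% of all genes) and 2 lower (PHYB and UNE10/PIF8; 15.3% of all genes). The control and heated libraries did not overlap for 6 of the 8 members in WT, where this held for 37.4% of all genes, and for the same number in atcyp18-2, where it held for 44.8%. The median log2 fold change of the members was 0.25 in WT and 0.51 in atcyp18-2, beside -0.02 and -0.01 over all genes tested.

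PIF4 showed the largest change of the set. In WT it stood at 1.01, 1.75 and 1.42 CPM without heat, from 14 to 28 reads a library, and at 4.81, 6.90 and 6.86 CPM after heat, from 35 to 81 reads. In atcyp18-2 it held 2.48, 2.24 and 1.91 CPM without heat and 8.55, 9.19 and 10.2 CPM after it. The heated libraries lay above all controls in both genotypes, and heated atcyp18-2 libraries above heated WT ones. PIF4 rose by 2.14 ± 0.25 on the log2 scale in WT, 4.41-fold (adjusted p = 3.58e-05), and by 2.07 ± 0.23 in atcyp18-2, 4.19-fold (adjusted p = 2.54e-05). The difference between these responses was -0.07, with a 95% interval from -0.78 to 0.63 (adjusted p = 1). Scaling by library totals left PIF4 called in both genotypes, at 1.41 (adjusted p = 0.00658) and 1.31 (adjusted p = 0.00721). In the authors' deposited table of changed genes PIF4 had a log2 fold change of 2.22 with heat in WT (adjusted p-value 1.01e-06) and 2.17 in atcyp18-2 (8.05e-07), and it was the only member listed there for WT, among 1020 genes.

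PIF3 and PIF1 were called higher with PIF4 in both genotypes. PIF3, the first PIF to be found, works in the dark-grown seedling and in chloroplast development. It stood at 2.50, 3.01 and 3.38 CPM in WT control, 4.54, 6.15 and 7.69 CPM in WT heat, 3.01, 2.72 and 3.48 CPM in atcyp18-2 control and 8.72, 9.55 and 10.2 CPM in atcyp18-2 heat leaves. Control libraries of both genotypes shared a range, and heated atcyp18-2 libraries were above the heated WT ones. PIF3 rose by 1.06 ± 0.22 in WT (adjusted p = 0.00426) and by 1.63 ± 0.22 in atcyp18-2 (adjusted p = 0.000126) on the log2 scale. Without the 5 libraries under 28% psbA the value in WT was 0.65 (adjusted p = 0.159) and in atcyp18-2 1.63 (adjusted p = 4.14e-05), and with library totals it was 0.37 in WT (adjusted p = 0.338). With library totals PIF3 stayed called in atcyp18-2 (0.88, edgeR adjusted p = 0.0382). Relative to the median gene PIF3 stood at 1.14 in WT and 1.64 in atcyp18-2 under that scaling. In the authors' deposited table of changed genes PIF3 appeared for heat in atcyp18-2, at 1.61 (adjusted p-value 0.000232).

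PIF1 represses seed germination in the dark and chlorophyll synthesis. It held 2.91, 5.06 and 3.02 CPM in WT control and 7.88, 6.15 and 6.77 CPM in WT heat leaves, from 33 to 83 reads a library. In atcyp18-2 it held 4.21, 5.30 and 3.82 CPM without heat and 8.22, 11.3 and 9.89 CPM after heat. Heated and control libraries did not overlap in either genotype. PIF1 rose by 0.91 ± 0.25 in WT (adjusted p = 0.0178) and by 1.14 ± 0.24 in atcyp18-2 (adjusted p = 0.00318) on the log2 scale. The call in WT was lost without WT control replicate 1 (adjusted p = 0.0773), WT control replicate 3 (adjusted p = 0.0565) or WT heat replicate 1 (adjusted p = 0.0727). With library totals PIF1 was not called in WT (0.13, adjusted p = 0.745) or in atcyp18-2 (0.41, adjusted p = 0.321). Relative to the median gene PIF1 stood at 0.90 in WT and 1.17 in atcyp18-2 under that scaling.

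**Figure D3:**
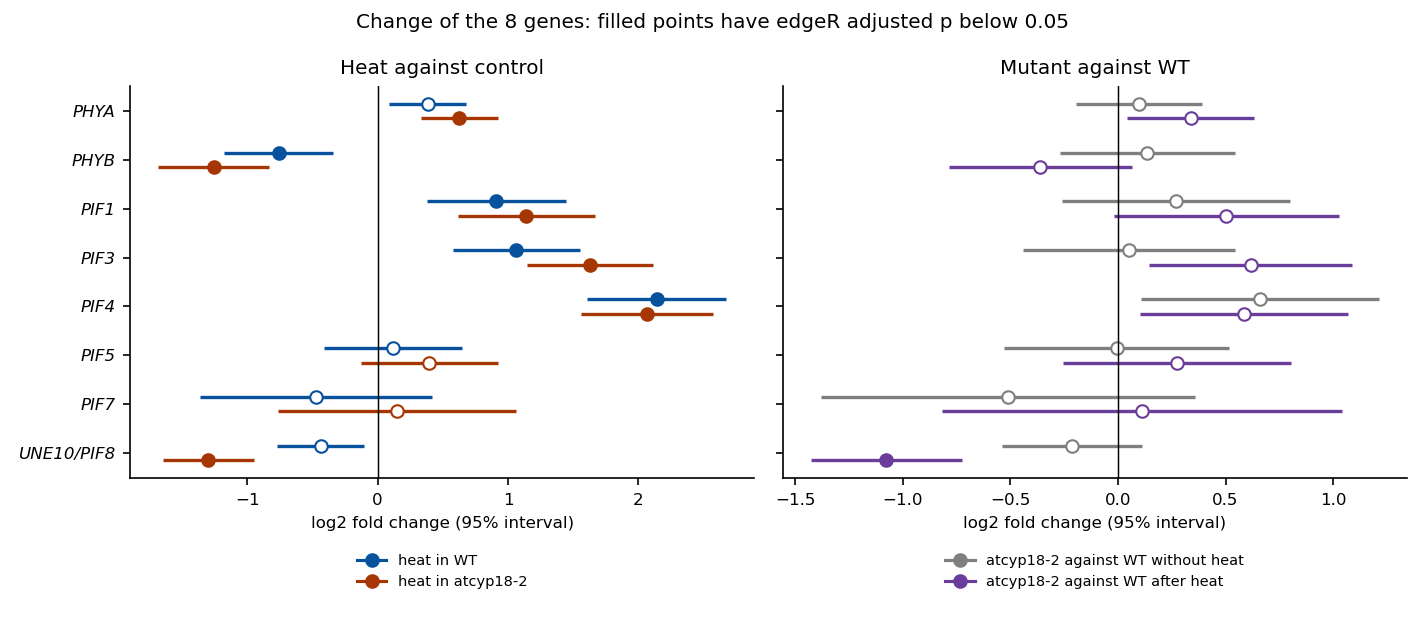
Log2 fold change of each member (x axis) with its 95% interval, for heat against control in each genotype (left) and for atcyp18-2 against WT without and after heat (right); filled points had an edgeR adjusted p below 0.05. PIF4 has near-equal values with heat in the genotypes, 2.14 and 2.07, and on the right UNE10/PIF8 after heat, at -1.08, is the filled point.

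UNE10/PIF8, named after a mutant with an embryo sac defect and known in seedlings as a PIF that restrains phytochrome A signalling in far-red light, was lower in heated atcyp18-2 leaves than in any other group. In WT it stood at 32.6, 31.7 and 28.5 CPM without heat and 27.7, 19.1 and 21.8 CPM after it. The atcyp18-2 control libraries held 28.4, 27.0 and 24.6 CPM and the heated ones 10.5, 11.6 and 10.4 CPM, from 63 to 97 reads. Heated WT libraries reached into the range of atcyp18-2 controls, whereas the heated mutant libraries lay below every other library. UNE10/PIF8 fell by 1.299 ± 0.160 with heat in atcyp18-2 on the log2 scale (adjusted p = 5.24e-05), and its log2 fold change in WT was -0.44 ± 0.15 (adjusted p = 0.0547). The value in WT lay near the threshold: DESeq2 called it (-0.44, adjusted p = 0.0419), as did the fit with library totals (-1.21, adjusted p = 0.00293), and 8 of the 24 alternatives in all. With library totals UNE10/PIF8 stood at -0.44 relative to the median gene in WT. Without the 5 libraries under 28% psbA its log2 fold change in WT was -0.29. After heat it was lower in atcyp18-2 than in WT by a log2 fold change of -1.08 ± 0.16 (adjusted p = 0.0259), rank 11 by p of the 16636 genes tested. It was the 1 member among the genes called in that comparison, which were 0.222% of all genes. Without heat the difference between genotypes was -0.22 ± 0.15 (adjusted p = 1).

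The test of the difference itself, the heat response in atcyp18-2 less that in WT, gave -0.86 ± 0.22 for UNE10/PIF8 (95% interval -1.34 to -0.38, unadjusted p = 0.00186, adjusted p = 0.583). It thus missed the threshold, as did every gene tested in that contrast, where 0% of genes and 0 members were called by edgeR, 912 genes and 1 member had an unadjusted p below 0.05, and DESeq2 called 30 genes and no member. The call after heat was lost when any heated atcyp18-2 library was left out (adjusted p = 0.137, 0.0636 and 0.0937 without replicates 1, 2 and 3), and without WT heat replicate 1 (0.155) or atcyp18-2 control replicates 2 (0.0555) or 3 (0.0503), while its log2 fold change stayed between -1.20 and -0.94 in all 24 alternatives. Without the 5 libraries under 28% psbA it was -1.16 (adjusted p = 0.00193). With the replicate number as a block it was -1.07 (adjusted p = 0.0941), and with library totals -1.16 (adjusted p = 0.148). The authors' deposited table for heat in atcyp18-2 gave UNE10/PIF8 a log2 fold change of -1.305 (adjusted p-value 0.000778) and PHYB one of -1.23 (0.000469). The authors' deposited table for atcyp18-2 against WT after heat lists 4 genes and no member.

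Other members did not differ between the genotypes past the threshold. Without heat none of the 8 was called, and edgeR called 4 genes in all (0.024%). PIF4 had the lowest p of the members there, at 0.66 ± 0.25 (unadjusted p = 0.0227, adjusted p = 1), the 1 member under an unadjusted p of 0.05, and DESeq2 also called none. Every atcyp18-2 control library held more PIF4 and less UNE10/PIF8 than any WT control library, and 6.68% of all genes were without overlap in that comparison. After heat PIF3 was at 0.62 ± 0.22 (adjusted p = 0.308), PIF4 at 0.59 ± 0.22 (adjusted p = 0.343), PIF1 at 0.50 ± 0.24 (adjusted p = 0.492) and PHYA at 0.34 ± 0.14 (adjusted p = 0.381) in atcyp18-2 against WT. These 4 and UNE10/PIF8 had no overlap between the genotypes after heat, as 14.8% of all genes did. PHYB stood at -0.36 ± 0.20 (adjusted p = 0.572), with overlapping libraries. The heat contrasts and the genotype contrasts share libraries, so these values are not independent of each other.

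PIF5 and PIF7 were not called in the edgeR fit without a psbA term, and within each group their libraries differed by psbA share. PIF5, which with PIF4 promotes growth in shade and leaf senescence, held 40.8, 41.0 and 27.2 CPM in WT control and 34.2, 33.2 and 50.5 CPM in WT heat leaves. In atcyp18-2 it held 43.6, 29.0 and 36.1 CPM without heat and 39.8, 62.2 and 40.7 CPM after it. In all 4 groups the samples under 28% psbA were higher than the others. PIF7, which drives auxin synthesis in shade, stood at 10.3, 10.8 and 5.78 CPM in WT control and 4.68, 4.65 and 9.70 CPM in WT heat leaves. Its atcyp18-2 libraries held 10.2, 4.35 and 4.43 CPM without heat and 5.59, 10.1 and 5.03 CPM after heat. Over the 12 libraries PIF7 thus lay at 9.70 to 10.8 CPM in the 5 samples under 28% psbA and at 4.35 to 5.78 CPM in the 7 others, whatever the group.

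PIF5 was not called with heat in WT (0.12 ± 0.24, adjusted p = 0.77) or in atcyp18-2 (0.40 ± 0.24, adjusted p = 0.238). PIF7 was at -0.47 ± 0.41 (adjusted p = 0.443) and 0.15 ± 0.42 (adjusted p = 0.822). These intervals are wide: for PIF7 in WT the 95% interval ran from -1.36 to 0.41. With the log2 psbA share as a further term, a fit that called 39.1% of all genes in WT and 49.7% in atcyp18-2, PIF5 was called in both genotypes, at 0.54 (adjusted p = 0.00248) and 0.70 (adjusted p = 8.66e-05). PIF7 then turned to 0.28 in WT (adjusted p = 0.228) and was called in atcyp18-2 at 0.76 (adjusted p = 0.002), so that all 8 members were called there. With the psbA class, a term added after seeing the data, PIF5 was called in both genotypes, at 0.30 (adjusted p = 0.021) and 0.38 (adjusted p = 0.00274), under a fit that called 42.1% and 51.3% of all genes, and PIF7 was at -0.18 (adjusted p = 0.348) and 0.15 (adjusted p = 0.5). In the 7 libraries over 28% psbA alone PIF5 was at 0.31 in WT (adjusted p = 0.215) and 0.31 in atcyp18-2 (adjusted p = 0.0774). The share was itself higher after heat, under and over 28%. In the fit with the log2 psbA share, its part and that of heat therefore cannot be fully told apart. What the psbA share stands for in these leaves was not tested.

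**Figure D4:**
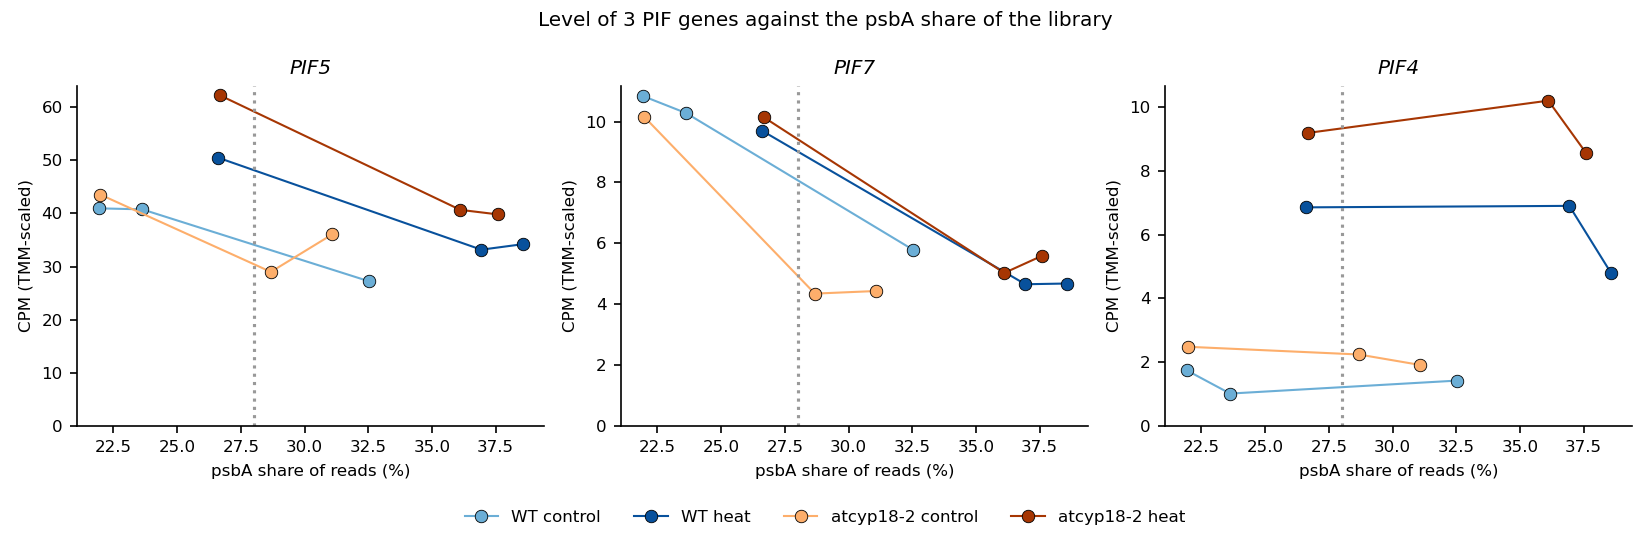
Level of PIF5, PIF7 and PIF4 in CPM (y axis, from 0) against the psbA share of the library's reads in percent (x axis); lines join the 3 libraries of a group and the dotted line marks 28%. PIF7 lies at 9.70 to 10.8 CPM left of the line and at 4.35 to 5.78 CPM right of it in every group, while PIF4 separates by heat.

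PIF4 and PIF5 are each other's closest relatives among the members by background knowledge, and their reads did not keep their ratio. Per PIF5 read, WT control libraries held 0.0233, 0.0412 and 0.0492 PIF4 reads and WT heat libraries 0.137, 0.205 and 0.134. In atcyp18-2 the ratio was 0.0554, 0.0751 and 0.0507 without heat and 0.212, 0.146 and 0.248 after heat. All heated libraries lay above all controls. Their longest identical run of transcript sequence is 23 bases.

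The other phytochromes were lower or level after heat. PHYD, the nearest relative of PHYB, went from 8.71 to 9.76 CPM over the WT control libraries to 4.85 to 5.75 CPM after heat, and from 7.60 to 9.91 CPM to 4.24 to 6.91 CPM in atcyp18-2. PHYE, which acts with PHYB in shade, went from 17.8 to 20.8 CPM to 10.6 to 13.2 CPM in WT and from 15.6 to 16.8 CPM to 6.25 to 8.64 CPM in atcyp18-2. Neither overlapped between control and heated libraries. PHYD fell by 0.78 ± 0.20 in WT (adjusted p = 0.0127) and fell by 0.60 ± 0.20 in atcyp18-2 (adjusted p = 0.0368), and PHYE fell by 0.61 ± 0.16 (adjusted p = 0.0147) and fell by 1.15 ± 0.17 (adjusted p = 0.000199), on the log2 scale. PHYC was at -0.38 ± 0.15 (adjusted p = 0.0887) and -0.05 ± 0.15 (adjusted p = 0.839). Of the other bHLH genes of the PIF subfamily, HFR1, which binds PIFs and holds them off DNA, was at 0.56 ± 0.44 (adjusted p = 0.397) and 0.41 ± 0.45 (adjusted p = 0.529), and SPT at -0.71 ± 0.55 (adjusted p = 0.389) and 0.78 ± 0.50 (adjusted p = 0.263). PIL1, PIF6 and ALC did not pass the filter, with at most 8 reads in any library.

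Among 25 genes for chromophore synthesis and partners of phytochromes and PIFs, the largest fall in both genotypes was that of RGL2, a DELLA gene. DELLA proteins bind PIFs and block them until gibberellin removes the DELLAs. Of the 24 fitted, 8 fell and 1 was higher in WT, and 9 fell and 1 was higher in atcyp18-2. Over all genes tested 10.3% were called lower and 13.2% higher in WT, and 15.3% and 16.9% in atcyp18-2. The list's median was -0.64 in WT and -1.07 in atcyp18-2, beside -0.02 and -0.01 over all genes. RGL2 went from 8.05 to 11.02 CPM over WT control libraries to 0.450 to 1.17 CPM after heat, from 118 to 144 reads down to 2 to 13. RGL2 fell by 3.48 ± 0.31 in WT (adjusted p = 3.71e-06) and fell by 2.78 ± 0.32 in atcyp18-2 (adjusted p = 2.81e-05) on the log2 scale. GAI, another DELLA, fell by 1.96 ± 0.30 in WT (adjusted p = 0.000422) and fell by 1.38 ± 0.30 in atcyp18-2 (adjusted p = 0.00333), and RGL1 fell by 1.82 ± 0.29 in WT (adjusted p = 0.000585) and fell by 1.66 ± 0.30 in atcyp18-2 (adjusted p = 0.000938). The other DELLA genes, named after their values were seen, were not called: RGA was at -0.43 ± 0.25 in WT (adjusted p = 0.239) and -0.37 ± 0.25 in atcyp18-2 (adjusted p = 0.288), and RGL3 at 0.64 ± 0.45 (adjusted p = 0.339) and 0.41 ± 0.47 (adjusted p = 0.543). HYH, a bZIP factor that acts with HY5 downstream of phytochromes, fell by 1.55 ± 0.47 in WT (adjusted p = 0.0308) and fell by 2.38 ± 0.51 in atcyp18-2 (adjusted p = 0.00351). HY2, the enzyme that makes the phytochrome chromophore, fell by 1.05 ± 0.31 in WT (adjusted p = 0.0268) and fell by 1.53 ± 0.34 in atcyp18-2 (adjusted p = 0.00387). The higher gene was SPA2, a partner of the ubiquitin ligase COP1, named after its values were seen, at 0.49 ± 0.14 in WT (adjusted p = 0.0224) and 0.39 ± 0.14 in atcyp18-2 (adjusted p = 0.0485). The other SPA genes went the other way. SPA1 stood at 61.5 to 67.2 CPM in WT control and 31.4 to 33.4 CPM in WT heat libraries. SPA3 went from 60.0 to 66.1 CPM to 30.4 to 45.6 CPM there, and SPA4 from 25.2 to 31.1 CPM to 12.4 to 17.0 CPM. In atcyp18-2 they were lower after heat too. With library totals 16 fell in WT and 17 in atcyp18-2, where 7500 and 7409 of all 16636 genes did, and none of the list was called higher.

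Known targets of PIFs did not move one way. Of 17 growth and auxin genes that PIFs raise, 10 were fitted, and many of the rest, among them YUC8, IAA19 and FT, held at most 11 reads in any library. In WT 1 was called higher and 3 lower, and in atcyp18-2 2 were called higher and 3 lower, with medians of -0.74 and -0.61. Over all genes tested 13.2% were called higher and 10.3% lower in WT, and 16.9% and 15.3% in atcyp18-2. The medians over all genes were -0.02 and -0.01. The higher one in both was PRE5, which codes for a small HLH protein that promotes growth. PRE5 had 0 to 1 reads in WT control libraries and 1 to 12 after heat, and 0 to 3 and 12 to 22 in atcyp18-2. With so few reads in the controls it passed the filter through its heated libraries, so its calls are no support for a rise of the list, and no fold or p is given for it. PAR1, an HLH protein that PIFs raise and that restrains them, rose by 1.80 ± 0.40 in atcyp18-2 on the log2 scale (adjusted p = 0.00434) and was at 1.10 ± 0.41 in WT (adjusted p = 0.0683). CKX5, a cytokinin oxidase, fell by 1.99 ± 0.48 in WT (adjusted p = 0.0102) and fell by 1.54 ± 0.51 in atcyp18-2 (adjusted p = 0.0345). YUC2, an enzyme of auxin synthesis, fell by 1.58 ± 0.44 in WT (adjusted p = 0.0201) and was at -0.81 ± 0.45 in atcyp18-2 (adjusted p = 0.189). PAR2, also an HLH gene, fell by 0.82 ± 0.27 in WT (adjusted p = 0.0462) and fell by 1.39 ± 0.29 in atcyp18-2 (adjusted p = 0.00266), and PRE1, another HLH gene, was at -0.90 ± 0.41 in WT (adjusted p = 0.13) and fell by 1.74 ± 0.44 in atcyp18-2 (adjusted p = 0.00883). These genes held few reads too. After heat CKX5 held 1 to 11 in WT and 1 to 7 in atcyp18-2, and YUC2 0 to 4 in WT. Heated atcyp18-2 libraries held 2 to 6 of PRE1 and 3 to 8 of PAR2. PAR1 held 6 to 13 in atcyp18-2 control libraries. Their fold changes thus rest on low counts. CKX5, YUC2, PRE1 and PAR2 passed the filter through their control libraries, where they were higher. As for PRE5, their calls are therefore no support for a change of the list.

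Of 9 genes of chlorophyll and carotenoid synthesis that PIFs lower in the dark, 2 fell and 1 rose in WT and 6 fell and 1 rose in atcyp18-2, with medians of -0.17 and -0.52. Of all genes tested 10.3% were called lower and 13.2% higher in WT, and 15.3% and 16.9% in atcyp18-2. The number that fell in WT depended on the fit: it was 7 with library totals, 6 with the psbA class, 5 with the psbA share, 3 by DESeq2 and 1 with the replicate block, against 6 to 7 under these in atcyp18-2. In that order the fits called 49.9%, 42.1%, 39.1%, 23.7% and 18.3% of all genes in WT, in either direction. In atcyp18-2 they called 50.6%, 51.3%, 49.7%, 31.8% and 27.1%. CHLI1, a subunit of magnesium chelatase, fell by 0.65 ± 0.13 in WT (adjusted p = 0.00346) and fell by 0.99 ± 0.13 in atcyp18-2 (adjusted p = 0.00011). PSY, the entry enzyme of carotenoid synthesis, fell by 0.45 ± 0.12 (adjusted p = 0.0184) and fell by 0.92 ± 0.12 (adjusted p = 9.97e-05). GUN5, another chelatase subunit, was at -0.14 ± 0.20 in WT (adjusted p = 0.647) and fell by 0.79 ± 0.20 in atcyp18-2 (adjusted p = 0.00916). The gene that rose was CHL27, which makes the fifth ring of chlorophyll, at 0.60 ± 0.17 in WT (adjusted p = 0.0229) and 0.63 ± 0.17 in atcyp18-2 (adjusted p = 0.0129), a call that library totals ended in both. No gene of these pathway lists was called between the genotypes, without heat or after it, or in the difference of the heat response.

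**Figure D5:**
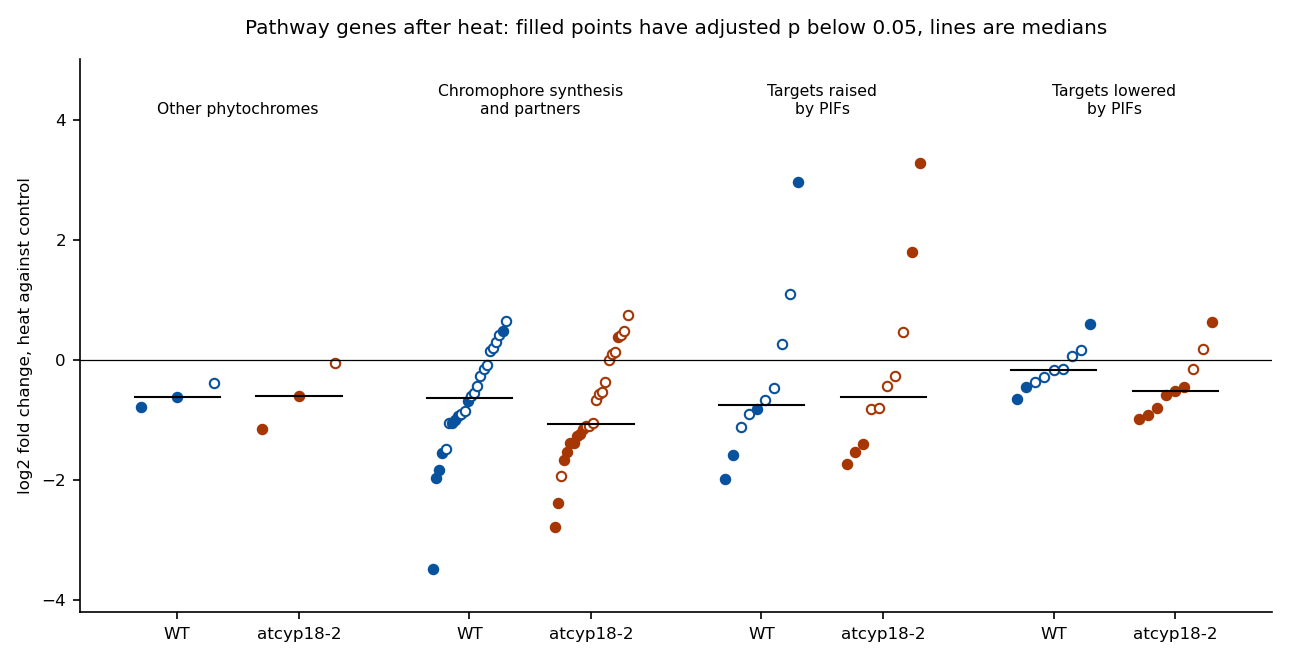
Log2 fold change with heat (y axis) of the fitted genes of 4 lists in WT (blue) and atcyp18-2 (brown); each point is a gene, filled where the edgeR adjusted p was below 0.05, and lines are list medians. The highest point in each genotype is PRE5, a fitted value against controls at or near 0 and no measure of its fold, the lowest is RGL2 in WT at -3.48, and the partner list has medians of -0.64 and -1.07.

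The nuclear genes most like PIF4 over the 12 libraries, by Pearson correlation of log2 CPM, were AT3G26890 (r = 0.987), PSBO2 (r = 0.981) and AT2G32970 (r = 0.980). Those most like PHYB were AT1G48100 (r = 0.991), PTAC2 (r = 0.984) and CER2 (r = 0.983). These describe a shared order of libraries, in which the 4 groups and the psbA share are common to all genes.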

How the data were processed

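RNA-seq of rosette leaves was analysed from the counts the authors deposited, 1 per transcript (51792 rows), in which every row holds 1 added read. That read was subtracted from the reads printed and is part of the CPM. HTSeq and DESeq are named, without version or role, in the submitters' processing notes; aligner, build and strand setting: not given in the sources used here. A read is counted for each transcript it fits. The design assumed counts per gene, so each gene was represented by its annotated transcript with the most reads (23174 genes).

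The 12 samples were fitted together with edgeR 4.0.16 in R 4.3.3 (TMM, filterByExpr by group, quasi-likelihood test, 5 contrasts, 8 residual degrees of freedom, Benjamini-Hochberg adjustment over 16636 genes). The fit was tested on simulated data with 200 changed genes. DESeq2 1.42.0, other scaling and filters, a replicate block and left-out libraries were alternatives, as were psbA terms. The log2 fold changes and adjusted p-values of the authors' deposited lists were copied; 12 columns of normalized values were not used. Replicates differed beyond sampling noise (lowest chi-square per degree of freedom 2.69).

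Named were all 8 members, all genes of lists of 5 or fewer, and from longer lists the called genes with the 4 largest changes per heat contrast. The members and lists were chosen with earlier results of these data known.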

Additional observations from a re-analysis of the deposited data

How the results depend on the processing

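Over 24 alternatives, 913 of the member values kept their side of the threshold, 20 were newly past it, 18 were no longer past it, and 1 called value reversed. Of the 668 values not called in either fit, all among the 913, 33 changed sign. The reversed value was PHYA with heat in atcyp18-2, at -0.12 with library totals, a scaling that moved the median gene by -0.77 in WT and -0.76 in atcyp18-2. Members called with heat in WT were 7 both with the log2 psbA share and with the psbA class as a further term, and 3 to 5 when single libraries were left out. Those 2 fits called 39.1% and 42.1% of all genes. The psbA share was itself higher after heat, so a fit with it does not fully separate share and heat. In atcyp18-2 they were 8 with the psbA share, 7 with the psbA class and 4 with library totals, where 49.7%, 51.3% and 50.6% of all genes were called. After heat, members called between genotypes were 0 with library totals, 0 with only the groups compared, 2 with the psbA class (7.41% of all genes called), and 0 to 1 leaving out single libraries. With the replicate block that count was 0. Deviations from the group mean, correlated between libraries of the same replicate number, gave r from -0.65 to 0.51 (7 of 18 pairs over 0.1). With 3 libraries a group that also split by psbA share, these values cannot decide whether the replicate numbers pair the samples. Members called in the difference of the heat response were 1 with the psbA share and 1 with the psbA class, in both UNE10/PIF8 (-0.88, adjusted p = 0.0346, and -0.89, adjusted p = 0.0202). These fits called 0.673% and 1.08% of all genes in that contrast. The psbA class was chosen after seeing the data. The causes were not tested. PIF4 was counted from 14 to 81 reads a library.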

Other observations

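Among the annotated transcripts of PHYA, AT1G09570.1 and AT1G09570.3 have 5 exons each, share 3 of them and differ in the first exon and at the transcript's end. The first exon of AT1G09570.3, at chr1:3099423-3099830 of TAIR10.1, lies within the first intron of AT1G09570.1, whose first exon is at chr1:3100147-3100819. Reads fitting AT1G09570.3 were 93.97 to 96.05% of those fitting AT1G09570.1 in the 6 control libraries and 97.19 to 102.2% in the 6 heated ones, without overlap. The comparison was chosen after its values were seen and has no test. The split depends on the transcript taken as the base. As a share of AT1G09570.5, the transcript counted for PHYA, AT1G09570.3 stood at 96.05% in WT control replicate 1 and 95.94% in WT heat replicate 1. AT1G09570.1 moved against that base too, to 96.59% in WT heat replicate 2. Unspliced RNA cannot be told apart from the other first exon in these counts, nor can the first exon from the differing end.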
